A study of Mus musculus with 10 samples.

Results

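The acetylcholine receptor genes Chrm1, Chrm2, Chrm3, Chrm4, Chrm5, Chrna4, Chrna7 and Chrnb2, together with the acetylcholinesterase gene Ache, were followed in hippocampal synaptoneurosomes, which are isolated synaptic endings with their postsynaptic partners attached. They were chosen by name, and the 9 genes are 9 of the 22255 in the deposited gene table. All libraries came from wild-type C57Bl/6J mice. Sub-chronic AM6545 had been given for 5 libraries and vehicle for the other 5. AM6545 blocks the CB1 cannabinoid receptor and is known for its limited passage into the brain. Dose, route, age and sex, and whether a library came from 1 animal or a pool, are not given in the sources used here, so n counts libraries and a p-value measures only the spread between them.

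Acetylcholine reaches the hippocampus mainly along axons of neurons in the medial septum and diagonal band, and it favours the encoding of new information and theta rhythm. It acts on muscarinic receptors, which couple to G proteins, and on nicotinic receptors, which are cation channels built of 5 subunits. The M1, M3 and M5 receptors couple to Gq, whereas M2 and M4 couple to Gi/o. Subunits alpha4 and beta2 assemble with each other, and alpha7 can form a channel of its own. Acetylcholinesterase ends the signal by splitting the transmitter in the synaptic cleft.

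The members of the muscarinic family resemble each other closely in places, so their sequences show whether reads could be shared between them. Across the 5 muscarinic coding sequences the most alike stretch of 30 bases begins at the codon of an aspartate in the third transmembrane helix, which holds the positively charged end of acetylcholine. The lines below give it 5′ to 3′ from the GENCODE M21 transcripts, on build GRCm38, with capitals for the 23 bases that are identical in all 5 genes.
Chrm1: GACTATGTgGccAGCAAcGCcTCtGTcATG
Chrm2: GACTATGTtGtcAGCAAtGCcTCcGTtATG
Chrm3: GACTATGTgGccAGCAAtGCtTCtGTcATG
Chrm4: GACTATGTgGtgAGCAAtGCcTCtGTcATG
Chrm5: GACTATGTaGccAGCAAcGCtTCtGTcATG
These lie in coding exons at chr19:8678245-8678274 on the plus strand for Chrm1, chr6:36523516-36523545 plus for Chrm2, chr13:9878531-9878560 minus for Chrm3, chr2:91927579-91927608 plus for Chrm4 and chr2:112480413-112480442 minus for Chrm5. Even here Chrm1 matched the others at no more than 28 of the 30 bases. Over whole transcripts, 0 words of 31 bases were shared between any of the 9 genes. Of the words of each gene, at most 0.494% (Chrm1) also occurred, in the same orientation, in a transcript of any gene outside the 9. In that orientation, a stretch of 31 bases could thus be assigned to no more than 1 of the 9 genes. Matches on the opposite strand were not counted: Chrnb2 had 0 shared words, although exons of Adar on that strand overlap 1365 of its bases. Overlap with other genes on the genome is given beside each gene it touches.

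Library totals were 18106112 to 25899794 counts. All 9 genes passed the expression filter of the comparison, on as few as 14 counts in a library for Chrm4 and as many as 5340 for Chrm1. Markers of the preparation were present: the summed level of 6 postsynaptic and dendritic RNAs (Camk2a, Dlg4, Shank1, Arc, Homer1 and Ddn) was 876 to 1188 CPM, which is a gene's counts relative to the TMM-scaled size of its library. Markers of other cells were present too, with the sum of 3 oligodendrocyte genes (Mbp, Mog and Mag) between 6811 and 16541 CPM. Vehicle replicate 1 stood apart from the rest, being the lowest library for 23.5% and the highest for 25.1% of all genes tested, and the difference of each of the 9 genes without it is given below. In bulk RNA of such a preparation, fewer cells of a type, less RNA per cell and a different recovery of cell parts cannot be told apart.

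Compared per length, the 9 genes spanned a wide range and fell into a high pair and a low group of 7. These levels are counts per transcript divided by the transcript length in GENCODE M21 and scaled to the same sum in every library, and they are a description without a test. Chrm1 had a level of 82.0 ± 14.7 and Ache one of 77.0 ± 12.6 (SD, n = 10 libraries), and Chrm1 was the higher of the pair in 7 of 10 libraries. The lowest Ache library stood well above the highest library of the next gene, Chrna7, with a ratio of means of 7.74. Chrna7 had 9.95 ± 1.66, Chrna4 8.44 ± 2.35, Chrm3 4.20 ± 1.15 and Chrnb2 3.92 ± 0.346 on the same scale (SD, n = 10). Chrm5, at 2.76 ± 0.709, Chrm2, at 2.60 ± 0.308, and Chrm4, at 1.74 ± 0.607, were the lowest (SD, n = 10).

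**Figure D1:**
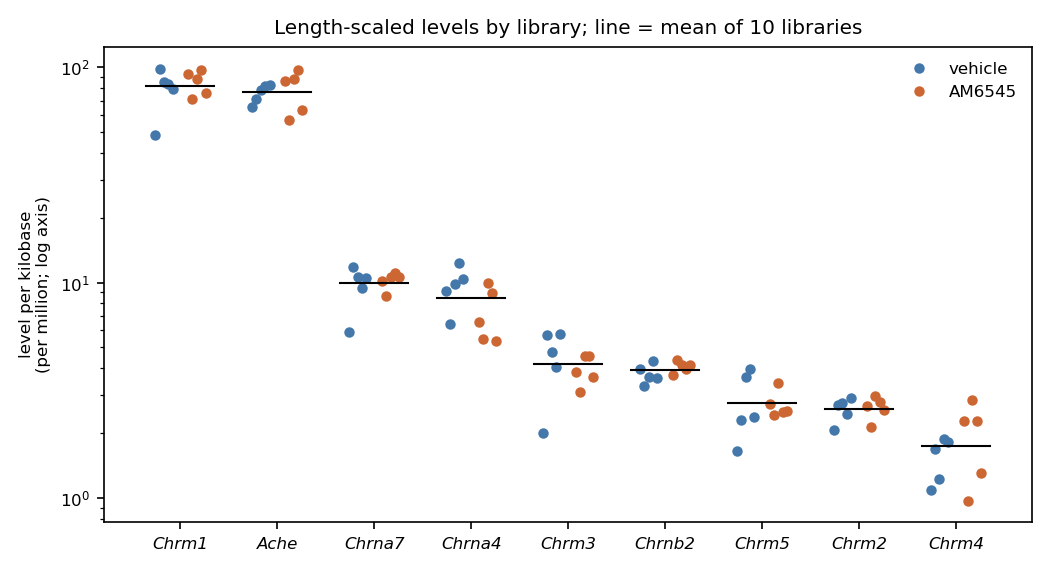
Level per kilobase (vertical log axis, scaled to the same sum in every library) of each gene in every library, with vehicle in blue, AM6545 in orange and a line at the mean of the 10 libraries. Chrm1 and Ache, with means of 82.0 and 77.0, stand apart from the other 7 genes, whose means run from 1.74 to 9.95.

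Neighbours in this order were not all separated. The ranges over libraries overlapped for every neighbouring pair except Ache and Chrna7, although Chrna4 exceeded Chrm3, Chrnb2 exceeded Chrm5 and Chrm2 exceeded Chrm4 within each of the 10 libraries. Chrm5 exceeded Chrm2 in only 5 of 10. Chrm1 made up 86.0% to 89.2% of the summed level of the 5 muscarinic genes in every library, and Chrm3, the next on the mean over libraries, 3.61% to 6.26%. In vehicle replicate 1 Chrm2 was above Chrm3, at 3.74% against 3.61%. The annotated Chrm4 and Chrm5 transcripts are single exons of 1440 and 1599 bases that hold 3 bases beyond the coding sequence, so reads from untranslated regions of these genes would not have been counted under such models. Whether the annotation used for counting has the same models is not given in the sources used here.

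For none of the 9 genes was the difference between AM6545 and vehicle larger than the spread between libraries by the test used. Tested by edgeR's quasi-likelihood method among 14358 genes, 0 of 9 reached a Benjamini-Hochberg adjusted p below 0.05 (background over all genes 0.0%), and adjusted p was 0.9998 or 0.9999 for each. At an unadjusted p under 0.05 the count was also 0 of 9, where 1.88% of all genes tested met that level, and the DESeq2 Wald test and limma-voom likewise gave 0 of 9 at both levels. The median log2 fold change of the 9 was 0.0098 beside -0.0057 over all genes tested, with 5 above and 4 below 0. Over all genes tested, 6906 were above and 7452 below 0. No gene of the 9 had groups that did not overlap, which 0.293% of all genes tested had.

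Among the Gq-coupled muscarinic receptors, Chrm1 (ENSMUSG00000032773.10, chromosome 19, 8663789 to 8683587 on the plus strand of GRCm38) encodes the main muscarinic receptor of hippocampal pyramidal cells. Its vehicle libraries 1 to 5 had 132.5, 202.9, 204.2, 199.6 and 177.4 CPM, and its AM6545 libraries 1 to 5 had 207.5, 167.2, 210.3, 218.4 and 168.3 CPM. Vehicle replicate 1 was the lowest of all 10, and 3 AM6545 libraries lay above all vehicle libraries by a small margin. The log2 fold change of AM6545 against vehicle was 0.084 (standard error, SE, 0.13; unadjusted p by edgeR = 0.512), and the 95% interval of the fold ran from 0.881 to 1.27. Without vehicle replicate 1 it was -0.012, so its sign rested on that library. An exon of the noncoding gene Gm22820 overlaps 329 bases of Chrm1 on the opposite strand, and use of strand in counting is not given in the sources used here.

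Chrm3 (ENSMUSG00000046159.17, chromosome 13, 9875486 to 10360847, minus strand), which encodes the M3 receptor, showed the same low library. Vehicle libraries 1 to 5 had 5.05, 9.28, 10.9, 9.26 and 10.5 CPM, and AM6545 libraries 1 to 5 had 8.16, 6.82, 10.2, 9.95 and 7.86 CPM. The groups overlapped fully, since every AM6545 library lay inside the vehicle range. Its log2 fold change was -0.066 (SE 0.18; unadjusted p by edgeR = 0.722), a 95% interval of the fold from 0.733 to 1.25, and it was -0.21 without vehicle replicate 1. Chrm5 (ENSMUSG00000074939.4, chromosome 2, 112479171 to 112480769, minus strand), the gene of the M5 receptor, ranged from 1.55 to 3.36 CPM in vehicle and from 2.02 to 2.87 CPM in AM6545 libraries on 32 to 82 counts. Its log2 fold change was -0.070 (SE 0.24; unadjusted p by edgeR = 0.776), and -0.18 without vehicle replicate 1.

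The Gi/o-coupled pair had the smallest and the largest difference of the 9. Chrm2 (ENSMUSG00000045613.10, chromosome 6, 36388084 to 36528414, plus strand), whose product acts as an autoreceptor on cholinergic terminals and also sits on interneurons, had 6.89, 7.10, 8.30, 7.33 and 8.33 CPM in vehicle libraries 1 to 5. In AM6545 libraries 1 to 5 it had 7.58, 6.26, 8.82, 8.07 and 7.22 CPM, so the lowest and the highest of the 10 were both AM6545 libraries. The log2 fold change was -0.00048 (SE 0.13; unadjusted p by edgeR = 0.997), and the 95% interval of the fold was 0.829 to 1.21. An exon of the noncoding gene 9330158H04Rik overlaps 142 of its bases on the opposite strand.

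Chrm4 (ENSMUSG00000040495.5, chromosome 2, 91927249 to 91928688, plus strand), the M4 receptor gene, had 0.922, 1.14, 0.934, 1.43 and 1.32 CPM in vehicle libraries 1 to 5 and 1.63, 0.724, 2.15, 1.67 and 0.940 CPM in AM6545 libraries 1 to 5. Of the AM6545 libraries, 3 lay above all vehicle libraries and 1 below all of them. Its log2 fold change of 0.30 had an SE of 0.29 (unadjusted p by edgeR = 0.318), and the 95% interval of the fold, 0.802 to 1.90, was the widest of the 9. Each library held 14 to 42 counts of this gene. The log2 fold change was 0.12 without AM6545 replicate 3 and 0.46 without AM6545 replicate 2.

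**Figure D2:**
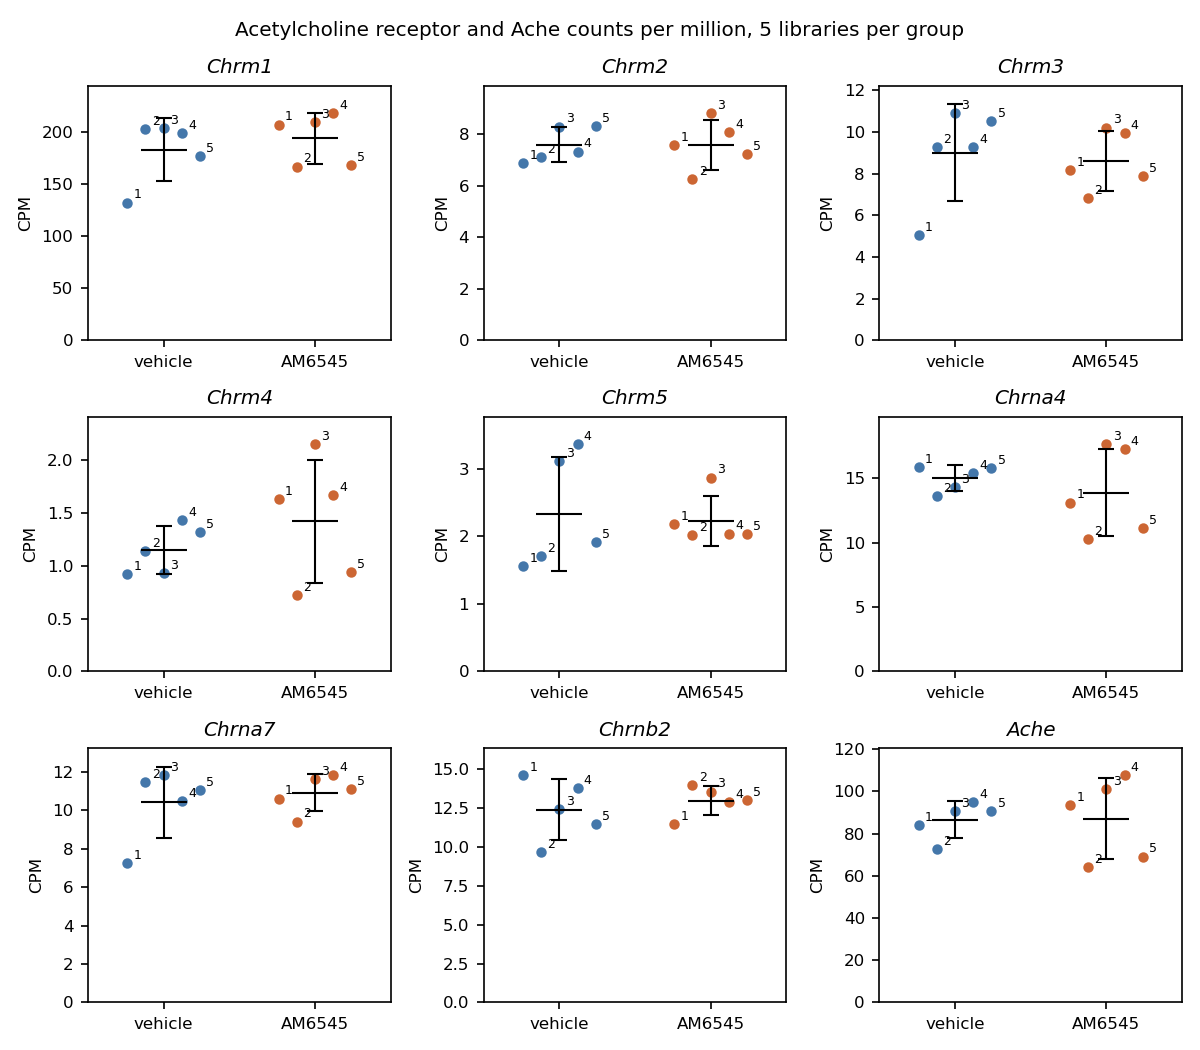
CPM of the 9 genes (vertical axes from 0) in 5 vehicle libraries (blue) and 5 AM6545 libraries (orange), numbered by replicate, with the mean and SD in black. Vehicle replicate 1 is the lowest library for Chrm1, Chrm3, Chrm5 and Chrna7, and AM6545 replicate 2 for Chrm2, Chrm4, Chrna4 and Ache.

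Of the nicotinic subunits, Chrna7 (ENSMUSG00000030525.9, chromosome 7, 63098692 to 63212569, minus strand) encodes the alpha7 subunit of a calcium-permeable channel found on interneurons, pyramidal cells and terminals. It had 7.23, 11.5, 11.8, 10.5 and 11.1 CPM in vehicle libraries 1 to 5 and 10.6, 9.41, 11.6, 11.8 and 11.1 CPM in AM6545 libraries 1 to 5. Vehicle replicate 1 was again the lowest, and all AM6545 libraries fell within the vehicle range. The log2 fold change was 0.067 (SE 0.14; unadjusted p by edgeR = 0.626), a 95% interval of the fold from 0.859 to 1.28, and it was -0.038 without vehicle replicate 1.

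Chrna4 (ENSMUSG00000027577.15, chromosome 2, 181018380 to 181043546, minus strand), the gene of the alpha4 subunit, had 15.9, 13.6, 14.3, 15.4 and 15.8 CPM in vehicle libraries 1 to 5. AM6545 libraries 1 to 5 had 13.1, 10.3, 17.6, 17.2 and 11.1 CPM, so that 2 lay above all vehicle libraries and 3 below all of them. The means were 15 ± 1.0 and 13.9 ± 3.41 CPM (SD, n = 5 each). The log2 fold change was -0.11 (SE 0.15; unadjusted p by edgeR = 0.451), and the 95% interval of the fold was 0.747 to 1.15. Its partner Chrnb2 (ENSMUSG00000027950.8, chromosome 3, 89746195 to 89764632, minus strand), the gene of the beta2 subunit, had 14.6, 9.66, 12.5, 13.8 and 11.5 CPM in vehicle and 11.5, 14.0, 13.6, 12.9 and 13.0 CPM in AM6545 libraries 1 to 5. All AM6545 values of Chrnb2 lay within the vehicle range. Its log2 fold change was 0.064 (SE 0.12; unadjusted p by edgeR = 0.608), and the 95% interval of the fold was 0.873 to 1.25. Exons of Adar, on the opposite strand, overlap 1365 bases of Chrnb2, so part of its counts cannot be assigned without knowing whether strand was used. The ratio of Chrna4 to Chrnb2 counts was 1.23 ± 0.152 in vehicle and 1.08 ± 0.267 under AM6545 (SD, n = 5 each), with the lowest values, 0.737 and 0.856, in AM6545 replicates 2 and 5.

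Ache (ENSMUSG00000023328.15, chromosome 5, 137287519 to 137294466, plus strand) had 84.0, 72.6, 90.6, 94.8 and 90.9 CPM in vehicle libraries 1 to 5 and 93.6, 64.4, 101.0, 107.7 and 69.1 CPM in AM6545 libraries 1 to 5. As for Chrna4, the AM6545 libraries straddled the vehicle group, with 2 above all of it and 2 below all of it. The SD was 8.74 CPM around a mean of 86.6 in vehicle and 19.4 CPM around 87.2 in AM6545 (n = 5 each). The log2 fold change was 0.0098 (SE 0.14; unadjusted p by edgeR = 0.944), and the 95% interval of the fold was 0.824 to 1.23. An exon of the noncoding gene Gm42456 overlaps 98 bases of Ache on the opposite strand.

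With libraries left out 1 at a time, Chrm4 stayed positive, between 0.12 and 0.46, and Chrna4 negative, between -0.21 (without AM6545 replicate 3) and -0.023 (without AM6545 replicate 2), in all 10 fits. The sign turned in 1 of 10 fits for Chrm1, Chrna7 and Chrnb2, in 2 for Chrm3 and Chrm5, in 4 for Chrm2 and in 5 for Ache. No fit gave any of the 9 an unadjusted p under 0.05. Beside the values given above, leaving out vehicle replicate 1 gave log2 fold changes of -0.033 for Chrm2, 0.23 for Chrm4, -0.091 for Chrna4, 0.13 for Chrnb2 and -0.00057 for Ache.

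The libraries that were low differed between the members. Vehicle replicate 1 was the lowest library for 4 of the 9 genes (Chrm1, Chrm3, Chrm5 and Chrna7) and the highest for Chrnb2. In that library the summed level of 3 excitatory neuron markers (Slc17a7, Camk2a and Neurod6) was 1260.0 CPM, against 1584 to 1797 CPM in the other vehicle libraries and 1482 to 1762 CPM in AM6545 libraries. Slc17a7 and Camk2a were lowest there, while Neurod6 was lowest in AM6545 replicate 3. The sum of 4 astrocyte markers was likewise lowest there, at 534 CPM, with Gfap, Gja1 and Aldh1l1 at their lowest and Aqp4 near its mean. The sum of 6 inhibitory neuron markers was 866 CPM, the highest of the vehicle group. It was carried mainly by Sst, at 359 CPM against 150 to 219 CPM in the other vehicle libraries. Pvalb, at 42.72 CPM, and Vip, at 58.25 CPM, were also the highest of the 10 libraries there, and Slc32a1 was the highest of the vehicle group. Gad1 and Gad2, which mark inhibitory neurons in general, were below vehicle replicates 2, 4 and 5 in that library. The sum of 4 choroid plexus markers, from the tissue that lines the ventricle beside the hippocampus, was 4872 CPM there, the highest of all libraries, with 58.2 to 3113 CPM in the other vehicle and 628 to 3882 CPM in AM6545 libraries. Ttr alone made up 4657 CPM of it, and Clic6 and Kl were lower there than in vehicle replicates 2, 3 and 5. All members of these lists had counts in every library. Their part in the values of Chrm1, Chrm3, Chrm5 and Chrna7 was not tested.

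AM6545 replicate 2 was the lowest library for the other set of 4, Chrm2, Chrm4, Chrna4 and Ache, and it was lowest for 9.93% of all genes tested. AM6545 replicate 3 was the highest for Chrm2, Chrm4 and Chrna4. The summed oligodendrocyte markers had their lowest value, 6811 CPM, in AM6545 replicate 2 and their highest, 16541 CPM, in AM6545 replicate 3, against 8508 to 12226 CPM in vehicle libraries. Mbp made up most of this sum. All 3 markers were highest in AM6545 replicate 3, and Mbp and Mag were lowest in AM6545 replicate 2, but Mog was lowest in AM6545 replicate 1. All 3 of these markers had counts in every library, and their part in the spread of these cholinergic genes was not tested. The sum of 7 thalamus and habenula markers, regions in which Chrna4 and Chrnb2 are known to be abundant, was 53.4, 72.4, 64.4, 49.9 and 81.7 CPM in AM6545 replicates 1 to 5, against 47.4 to 55.6 CPM in vehicle libraries. Chrna4 was lowest in replicates 2 and 5 and highest in replicate 3, which all exceeded the vehicle range of that sum. Prkcd alone gave 57.8 CPM of the sum in AM6545 replicate 5. In that library Tac2 was the lowest of the 10 libraries, and Tcf7l2, Ramp3 and Chrnb3 were below their means. Chrnb4 was the highest of the 10 there, and Rgs16 was above its mean. All 7 markers had counts in every library, and their part in the Chrna4 and Chrnb2 values was not tested.

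**Figure D3:**
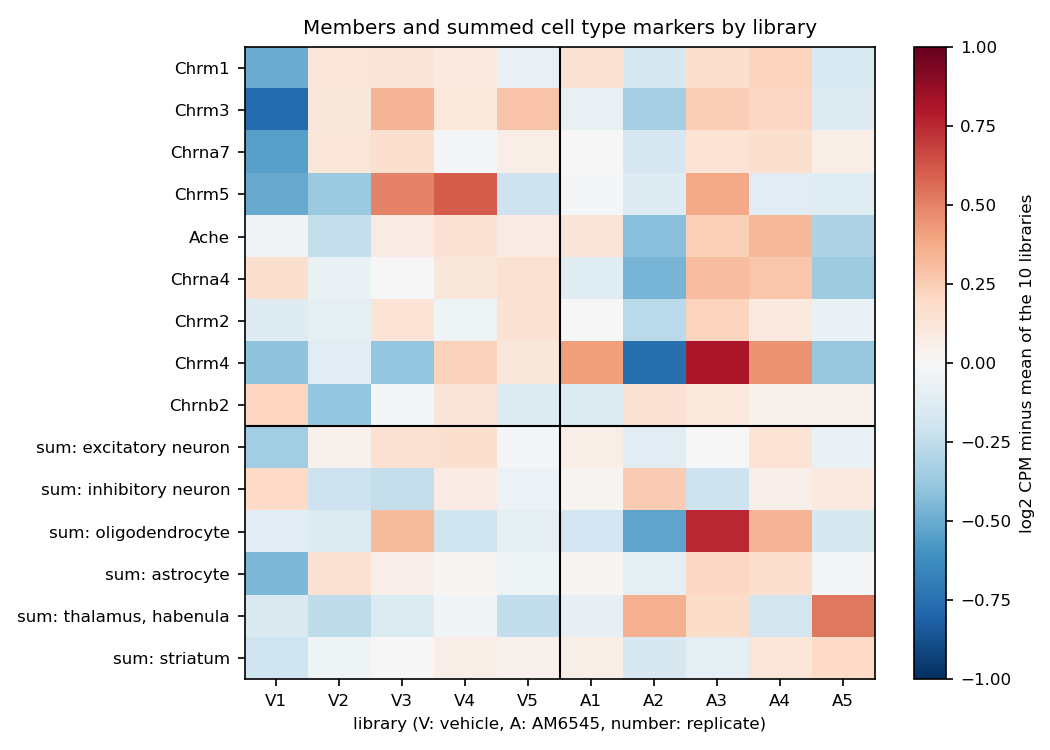
Log2 CPM of the 9 genes (upper rows) and of summed cell type markers (lower rows) in each library, minus the mean of the 10 libraries, with red above and blue below it. The low Chrm1, Chrm3 and Chrna7 values of vehicle replicate 1 and the low Ache, Chrna4, Chrm2 and Chrm4 values of AM6545 replicate 2 stand out.

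The genes whose log2 CPM followed each member most closely over the 10 libraries were taken from 14357 others by Pearson r, as a description without a test. For Chrm1 they were Slc24a3 (r = 0.981) and Cx3cl1 (r = 0.977), and 149 genes had an r above 0.9. Such genes numbered 136 for Chrna7, 58 for Chrm3 and from 1 (Chrm5) to 19 (Ache) for the other members. Vehicle replicate 1 was the lowest library for Chrm1, Chrna7, Chrm3 and Chrm5, and its part in these r was not tested. Chrna7 was followed by Tceanc (r = 0.966) and Slc38a7 (r = 0.962), and Chrm3 by Snx13 (r = 0.970) and Maneal (r = 0.952). Chrm2 went with Vangl2 (r = 0.942) and Aph1a (r = 0.935), and Chrm4 with Sema4b (r = 0.957) and Itga7 (r = 0.943). Nptn (r = 0.930) and Tmem68 (r = 0.869) were nearest to Chrm5, Gm16867 (r = 0.943) and Bcl10 (r = 0.921) to Chrna4, and Pcnx3 (r = 0.946) and Igsf8 (r = 0.945) to Ache. Nearest to Chrnb2 were Ramp3 (r = 0.941), itself among the thalamus and habenula markers, and Lxn (r = 0.937). For each gene these are the 2 highest r found among 14357 genes, and all these profiles share the same 10 libraries and their scaling.

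At the level of transcripts, 25 of the 30 annotated transcripts of the 9 genes had a count and 13 passed the filter. Of these 13, 0 passed the adjusted threshold in edgeR (background 0.00314% of 31848 transcripts), and 0 had an unadjusted p under 0.05 (background 1.97%). The smallest unadjusted p was 0.229, for Chrna4-204. By the DESeq2 Wald test 0 of them had an adjusted p under 0.05. The most abundant transcripts were Chrm1-201, Chrm2-202, Chrm3-202, Chrm4-201, Chrm5-201, Chrna4-201, Chrna7-201, Chrnb2-201 and Ache-201, and their log2 fold changes ran from -0.067 (Chrm5-201) to 0.31 (Chrm4-201).

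The split between transcripts of a gene was steady for some members and erratic for others. Chrm1-201 held 68.5% to 80.4% of Chrm1 counts and Chrna7-201 held 96.1% to 99.1% of Chrna7 counts in every library. Chrnb2-201, in contrast, held 37.5%, 97.9%, all, 0% and 98.5% of Chrnb2 counts in vehicle libraries 1 to 5 and 39.9%, 26.8%, 97.0%, all and 98.3% in AM6545 libraries 1 to 5. Nearly all the rest went to Chrnb2-202, a processed transcript that was at 0 in 6 of 10 libraries. The 2 transcripts share 95.5% of the 31-base words of Chrnb2-201 and 99.5% of those of Chrnb2-202, so few reads could tell them apart. Likewise Ache-201 and Ache-202 share 98.1% and 98.6% of their words, and Ache-202 ranged from 0 counts in vehicle replicate 3 and AM6545 replicate 3 to 690 counts in AM6545 replicate 4. The gene totals given above do not depend on these splits, since for 9 of 9 genes the gene value equalled the sum of its transcripts within 0.01 counts.

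**Figure D4:**
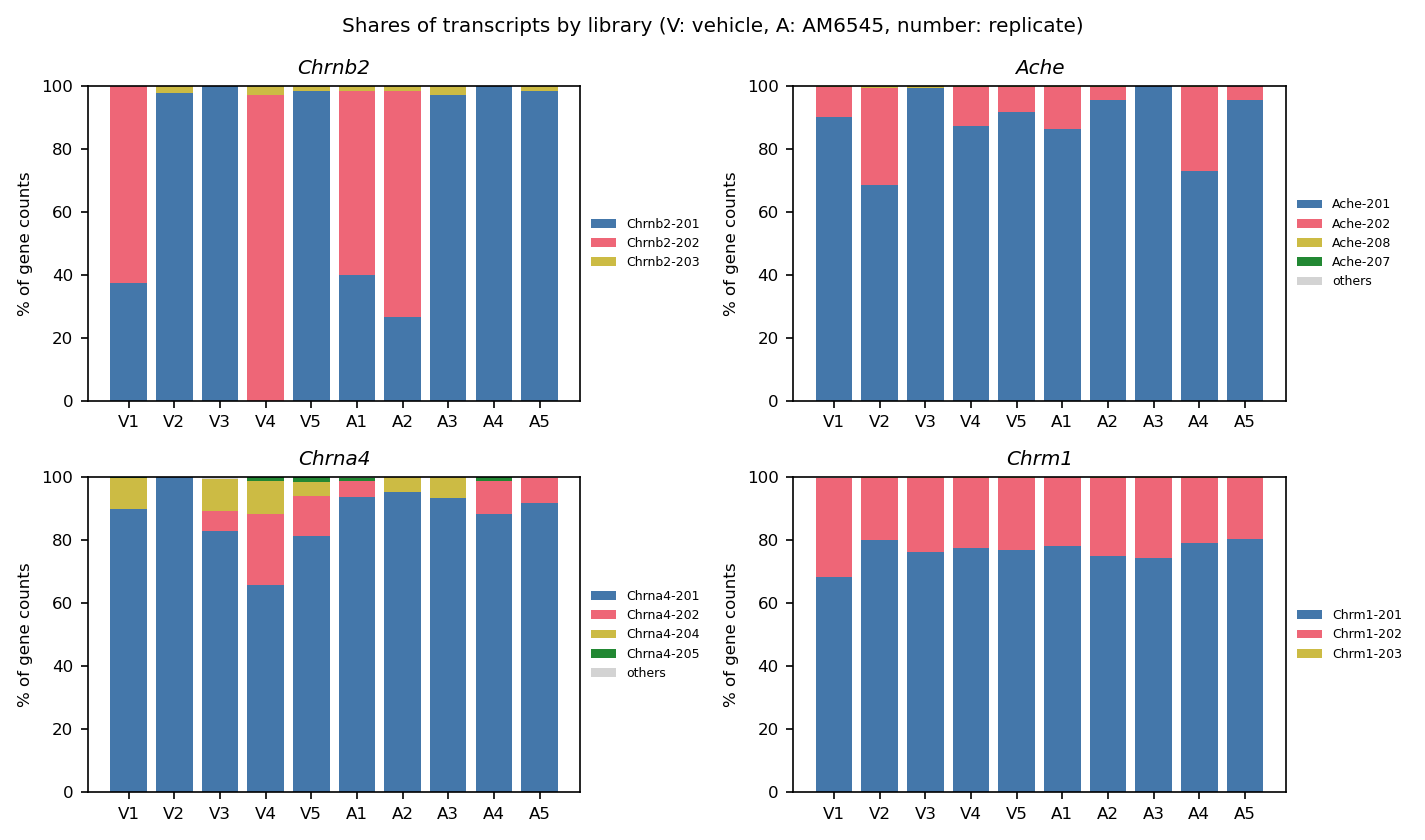
Share of each gene's counts (vertical axis, percent) assigned to its transcripts in the 5 vehicle (V) and 5 AM6545 (A) libraries, numbered by replicate. Chrnb2 flips between Chrnb2-201 and Chrnb2-202 from library to library within both groups, while Chrm1-201 stays between 68.5% and 80.4%.

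For the 6 genes with several detected transcripts, the share of the leading transcript was compared between groups by a two-sided exact permutation test over all arrangements of the 10 libraries. The largest difference was in Chrna4, where Chrna4-201 held 84.1 ± 12.5% in vehicle and 92.6 ± 2.65% under AM6545 (SD, n = 5 each). The exact permutation p was 0.167, or 0.818 adjusted over the 6 genes. The vehicle values, from 65.9% in replicate 4 to the whole of the counts in replicate 2, bracketed all AM6545 libraries, which lay between 88.4% and 95.3%. Without vehicle replicate 2 the exact permutation p was 0.0159, before any adjustment. The shorter transcripts Chrna4-202 and Chrna4-204 took 7.28% and 4.68% of Chrna4 counts overall and raise the level per kilobase where they are assigned. The ratio of Chrna4 to Chrnb2 per kilobase was 2.53 ± 0.401 in vehicle and 1.80 ± 0.534 under AM6545 (SD, n = 5 each). This ratio is therefore less certain than the ratio of counts. The other 5 genes had exact permutation p from 0.548 to 0.818, and the smallest p that these arrangements allow is 0.00794.

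The wider cholinergic pathway was read from a list of 49 genes, of which 39 passed the filter. By edgeR, DESeq2 or limma-voom, 0 were higher and 0 lower past the adjusted threshold of 0.05. With edgeR 1 was higher and 1 lower at an unadjusted p under 0.05 (background 1.14% higher and 0.738% lower over all genes tested). The median log2 fold change was 0.045, beside -0.0057 over all genes tested. Of the list, 25 genes were above and 14 below 0, beside 6906 above and 7452 below over all genes tested. Non-overlapping groups were found for 1 of the 39, against the 0.293% given above.

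That gene was Chrna1 (ENSMUSG00000027107.4, chromosome 2, 73563215 to 73580338, minus strand), which encodes the alpha1 subunit known from the muscle receptor. It had 2.38, 2.13, 2.13, 2.95 and 2.21 CPM in vehicle libraries 1 to 5 and 1.71, 1.499, 1.76, 1.71 and 1.93 CPM in AM6545 libraries 1 to 5. The highest AM6545 value was under the lowest vehicle value, on 29 to 72 counts. In edgeR's test the log2 fold change was -0.46 (SE 0.19; unadjusted p = 0.0282, adjusted p = 0.9998), which did not pass. The unadjusted p was 0.0931 without vehicle replicate 4, 0.0559 without AM6545 replicate 2 and 0.0509 without AM6545 replicate 4. Colq (ENSMUSG00000057606.15, chromosome 14, 31523082 to 31591343, minus strand), which encodes the collagen tail that anchors acetylcholinesterase at the muscle endplate, had 0.388, 0.805, 0.156, 0.451 and 0.383 CPM in vehicle and 1.01, 0.465, 0.716, 0.999 and 0.742 CPM in AM6545 libraries 1 to 5. These rested on 3 to 26 counts, and 2 of 5 AM6545 libraries exceeded the whole vehicle group. Its log2 fold change was 0.85 (SE 0.37; unadjusted p by edgeR = 0.0350, adjusted 0.9998). The unadjusted p was 0.0553 with the DESeq2 Wald test and 0.0512 by edgeR with the replicate block. Leaving out vehicle replicate 1, 3, 4 or 5 or AM6545 replicate 1 or 4 gave 0.0505 to 0.0902 by edgeR. Lower values came from limma-voom (0.0032) and, by edgeR, from leaving out vehicle replicate 2 (0.0068) or AM6545 replicate 2 (0.020). The adjusted p was 0.915 or more in each of these. Colq shares 199 exonic bases with Gm49387 on the same strand, so its counts are uncertain.

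Of the 13 other nicotinic subunits listed, 6 passed the filter. Chrna5, an accessory subunit of alpha4 beta2 receptors, was the most abundant of these in CPM, at 8.45 ± 1.87 in vehicle and 9.29 ± 1.04 under AM6545 (SD, n = 5 each). Chrnd had 0 counts in all libraries, which allows up to 0.116 to 0.166 CPM, and Chrng and Chrna9 had 0 to 2 counts per library.

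Transcripts for making and loading acetylcholine were at the edge of detection. Chat, the synthesizing enzyme, had 0 to 4 counts and Slc18a3, the vesicular transporter, 0 to 8 counts per library, beside a floor of 3 counts that corresponds to at most 0.166 CPM of the unscaled library total. Chat was at 0 in vehicle replicate 1 and AM6545 replicate 3, and Slc18a3 in vehicle replicate 5 and AM6545 replicate 2. No fold is given for either. The summed level of these genes, Slc5a7 and Isl1, as markers of cholinergic neurons, was 0.631 to 1.30 CPM in vehicle and 0.777 to 2.97 CPM in AM6545 libraries, and 1 of the 4, Slc5a7, had counts in every library. Isl1 alone gave 2.03 CPM of the highest value, in AM6545 replicate 5. The high-affinity choline transporter Slc5a7 had 5 to 18 counts, with 0.441 ± 0.181 CPM under vehicle and 0.621 ± 0.201 CPM under AM6545 (SD, n = 5 each). AM6545 against vehicle gave a log2 fold change of 0.48 (SE 0.36; unadjusted p by edgeR = 0.195), which was 0.18 with limma-voom and 0.30 without AM6545 replicate 2. Slc44a1, a general choline transporter, was at 129 ± 18.3 and 135.5 ± 20.4 CPM (SD, n = 5 each). The second cholinesterase, Bche, had 2.52 ± 0.370 CPM under vehicle and 2.82 ± 0.149 CPM under AM6545 (SD, n = 5 each). For this gene the log2 fold change was 0.16 (SE 0.17; unadjusted p by edgeR = 0.354). Per kilobase, Ache exceeded Bche 48.3-fold to 117-fold in the 10 libraries.

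The remaining groups of the list held no gene past an unadjusted p under 0.05. Of 9 nicotinic chaperones and Ly6-type modulators, among them Ric3, Tmem35a and Lynx1, 4 were above and 5 below 0, with a median log2 fold change of -0.00011. For 8 Gq and M-current effectors, including Gnaq, Plcb1 and Kcnq3, the split was 4 above and 4 below 0, with a median of 0.0023. The 7 Gi/o and GIRK channel genes had a median of 0.030 and a range of -0.068 to 0.091. All 5 receptor kinase and arrestin genes were above 0, with a median of 0.15, where 6906 of all 14358 genes tested were above 0. The smallest unadjusted p among these 5 was 0.0501 with edgeR, for Grk3, named here after its values were seen.

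**Figure D5:**
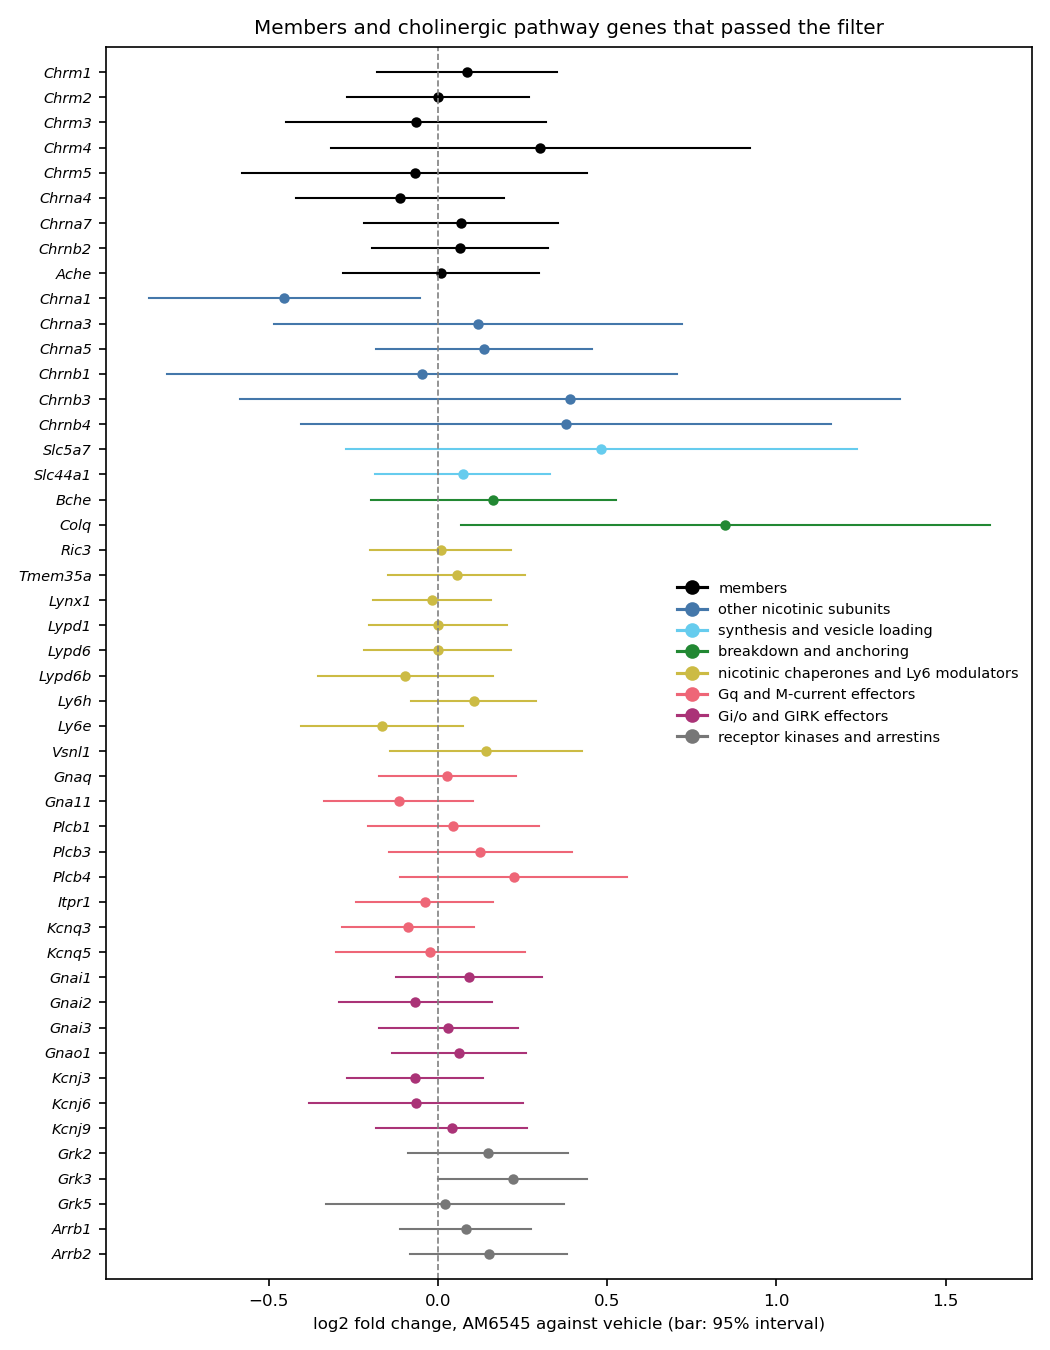
Log2 fold change of AM6545 against vehicle (horizontal axis; bars are 95% intervals from edgeR) for the 9 genes and the 39 tested genes of the pathway list, coloured by role. Intervals of all 9 receptor and esterase genes include 0, and those of Chrna1 and Colq do not, before adjustment.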

How the data were processed

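Per the labels' protocols, total RNA went into SMARTer Ultra Low Input libraries. The submitters' processing notes name Salmon 1.5.2 and mm10 without saying what each was used for. The authors deposited each estimated count per gene and per transcript unscaled, as the values show: 38.6% and 41.56% of the values are not whole numbers. Symbols were matched by identifier to 22155 of 22255 genes. All 30 transcripts of the 9 genes carry a version 1 above GENCODE M21, so its lengths, exon overlaps and GRCm38 coordinates may differ from the annotation counted against.

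Counts were rounded, filtered (filterByExpr, minimum count 10, minimum total 15), scaled by TMM and compared with edgeR 4.0.16 in R 4.3.3 (quasi-likelihood, robust, group alone, two-sided, Benjamini-Hochberg over all rows tested, threshold 0.05). Alternatives were DESeq2 size factors, the DESeq2 1.42.0 Wald test, limma 3.58.1 voom with quality weights (genes only), no filter, the replicate number as a block, and leaving out each library. Lengths covered 99.3% of transcript counts.

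On simulated data of 14358 genes for this comparison, edgeR called 178 of 300 genes changed 1.5-fold and 270 of 300 changed 2-fold. The changed genes were drawn at random from all genes tested. Counts were simulated gene by gene from the trended dispersions, without effects shared by the genes of a library. These shares are therefore not the sensitivity for the 9 genes. Amplified reads are not independent molecules, so count floors cover counting error only, and errors of read assignment between transcripts are not included. The 9 genes, the lists and the tests were chosen with earlier results of these data known. Some genes of these lists are not reported here, and sums and counts were computed without them. Named were the 9 genes, Chat, Slc18a3, Slc5a7 and Bche, genes of the list with an unadjusted p under 0.05, leading transcripts, and the 2 genes most like each member. Group and replicate number came from the titles, and no batch or date is given.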

Additional observations from a re-analysis of the deposited data

Results flagged for a closer look

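In 42 groups of 5 values, covering CPM of the named genes and shares of leading transcripts, 3 had a library standing apart from the other 4, where chance gives about 2.1. Vehicle replicate 1 had 5.05 CPM of Chrm3, where the rest of its group had 9.26 to 10.9 CPM. Chrm5 had 2.87 CPM in AM6545 replicate 3, against 2.02 to 2.18 CPM in the other AM6545 libraries. Chrm3-202 held 81.7% of Chrm3 counts in vehicle replicate 2, where the rest of the group had 96.6% to 99.1%. In that library 31 counts were assigned to Chrm3-201, a transcript at 0 in the other 9 libraries.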

How the results depend on the processing

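The count of the 9 genes, of their transcripts and of pathway genes with an adjusted p under 0.05 was 0 in every alternative run. Over all genes it was 0, but 1 with limma-voom and 0 to 1 when a library was left out. Over all transcripts it was 1, but 11 with the DESeq2 Wald test, 2 with no filter, 0 with the replicate block and 0 to 4 when a library was left out. Deviations of same-numbered libraries correlated for replicates 3 and 4 (0.23 and 0.39) but not for replicates 1, 2 and 5 (-0.14, -0.19 and 0.065), and 5 of 10 libraries correlated best with their own number. The numbers were not taken as pairs, since no label says that they are and not every pair correlated. The replicate block changed no other call at the adjusted threshold.

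Of 321 refits of single genes and transcripts, 283 kept their direction and 0 passed the threshold. Apart from leaving out libraries, 3 turned sign: Chrm2 with no filter (0.00029), and with the replicate block Ache (-0.013) and Chrm3-202 (0.017). Leaving out a library gave log2 fold changes of -0.012 to 0.13 for Chrm1, -0.058 to 0.061 for Chrm2, -0.21 to 0.011 for Chrm3, -0.18 to 0.10 for Chrm5, -0.038 to 0.12 for Chrna7, -0.013 to 0.13 for Chrnb2 and -0.078 to 0.10 for Ache. For transcripts these were -0.022 to 0.16 for Chrm1-201, -0.065 to 0.062 for Chrm2-202, -0.16 to 0.084 for Chrm3-202, -0.18 to 0.097 for Chrm5-201, -0.085 to 0.11 for Chrna4-201, -0.044 to 0.11 for Chrna7-201, -0.047 to 0.52 for Chrnb2-201 and -0.096 to 0.096 for Ache-201. The difference in leading share, in percentage points, ran from -0.359 to 2.59 for Chrm1, -0.0877 to 4.24 for Chrm3, 3.92 to 12.4 for Chrna4 (exact permutation p = 0.0159 without vehicle replicate 2), -11.1 to 17 for Chrnb2 and -2.13 to 6.87 for Ache. With the longest transcript as length, the level per kilobase was 57.6 for Ache, 4.84 for Chrnb2, 3.48 for Chrm5 and 3.28 for Chrm2, and the order of the 9 genes was the same. The causes were not tested. Among the 9 genes, counts were lowest for Chrm4 (14 to 42 per library).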

Other observations

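Isl1 and Prkcd, 2 marker genes picked out here after their values were seen, were highest in AM6545 replicate 5. Some markers of other cells, among them Gad2, Slc32a1, Pecam1 and Clic6, were also at their highest in that library. Isl1, a transcription factor gene of cholinergic and striatal neurons, had 2.03 CPM there, against 0 to 0.827 CPM in the other 9 libraries, and was at 0 counts in vehicle replicate 3. Prkcd, a gene abundant in thalamus, had 57.8 CPM there, against 20.5 to 35.9 CPM in the others. Other markers of thalamus, habenula and striatum went both ways there. Tac2 was the lowest of the 10 libraries, and Tcf7l2, Ramp3, Chrnb3, Drd1 and Gpr6 were below their means. Chrnb4 was the highest of the 10, at 1.19 CPM, and Rgs16 and Adora2a were above their means. The sum of 5 striatal markers was 24.6 CPM, the highest of the 10 libraries, with Drd2 and Rgs9 at their highest. In the same library Chat had 3 counts, Slc18a3 had 2 and Ache had 69.1 CPM, below the vehicle range.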
